A study of Mus musculus with 6 samples.

Results

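The integrated stress response was examined in mouse liver through 10 genes: Atf4, Atf3, Ddit3, Trib3, Ppp1r15a, Asns, Chac1, Sesn2, Ddit4 and Nupr1. They were picked by symbol as genes of the ATF4 pathway and of amino acid stress. All 10 were found among the 12393 genes of the array that had a probe set with 1 gene symbol, and together they had 16 of the 20380 such probe sets. The values came from 6 Affymetrix arrays, 1 per mouse. All mice were wild type on the C57 background and 1 month old. The livers of 3 mice had received an adenoviral vector to overexpress TFEB, a transcription factor that acts on lysosomal genes, and those of 3 further mice had no injection. No promoter of the vector is named. No group with an empty vector is named, so the injection, the vector and TFEB cannot be told apart. Liver tissue was used whole, so that more cells of a type and more RNA per cell cannot be told apart either.

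In the integrated stress response, kinases that sense viral RNA, misfolded proteins, missing amino acids or missing heme phosphorylate the translation factor eIF2. Most protein synthesis then slows, while the messenger RNA of Atf4 is translated more. ATF4 is a basic leucine zipper factor that switches on genes for amino acid synthesis, amino acid uptake and tRNA charging, together with further regulators such as Ddit3, Atf3, Trib3 and Nupr1. Several of these act back on the pathway, and Ppp1r15a encodes a phosphatase subunit that restores eIF2. ATF4 binds composite elements made of a C/EBP site joined to an ATF site. Arrays measure RNA only, so neither eIF2 phosphorylation nor ATF4 protein was measured.

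The promoters show which members carry such an element close to their start site. RefSeq promoters of GRCm38.p6, each with 250 bases before and 50 after a start site, were found for all 10 members, with 1 promoter each. They were searched on both strands for TGATGNAAN, the core of the C/EBP-ATF element. This motif was in 5 of the 10 promoters, those of Nupr1, Atf3, Trib3, Chac1 and Asns, against 3.95% of all 32851 promoters of the same length. The share was 3.11% of the 9887 genes of the array with a promoter. The members were picked as genes of the ATF4 pathway, so a high share is part of that choice. It was not in the windows of Atf4, Ddit3, Ppp1r15a, Sesn2 and Ddit4, which says only that these letters do not occur there. The 250 bases before the start site of Nupr1 (chr7:126625471-126625720, minus strand) are shown whole because Nupr1 had the largest difference among the members. Capitals mark an E-box, CACGTG, at 225 to 220 bases before the start and the C/EBP-ATF motif at 111 to 103 bases before it, which lies on the opposite strand as TGATGCAAT.

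Nupr1: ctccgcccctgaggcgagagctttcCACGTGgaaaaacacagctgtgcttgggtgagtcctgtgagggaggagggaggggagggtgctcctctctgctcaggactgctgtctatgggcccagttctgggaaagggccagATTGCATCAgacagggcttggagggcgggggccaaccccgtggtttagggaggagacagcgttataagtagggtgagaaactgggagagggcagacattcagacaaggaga

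The other matches are shown with 10 bases on each side, in the direction of the gene and with the motif in capitals, so that their letters can be set against those of Nupr1. The match of Atf3 (chr1:191183426-191183454, minus strand) lies 111 to 103 bases before its start and reads TGATGCAAG on the opposite strand. In Chac1 (chr2:119351038-119351066, plus strand) it lies 194 to 186 bases before the start and reads TGATGCAAC on the opposite strand. In Trib3 (chr2:152344029-152344057, minus strand) it lies 14 to 22 bases after the start and reads TGATGTAAA on the opposite strand. That of Asns (chr6:7693214-7693242, minus strand) lies 23 to 15 bases before the start on the gene's own strand.
Atf3: ccttctcgcaCTTGCATCAccaagtccgc
Chac1: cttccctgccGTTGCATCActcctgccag
Trib3: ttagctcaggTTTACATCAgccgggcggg
Asns: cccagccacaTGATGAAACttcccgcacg

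CACGTG is the core of the E-boxes to which TFEB and other helix-loop-helix factors bind. Among the members it was found only in the Nupr1 promoter, 1 of 10, against 7.15% of all promoters. The share was 10.8% of the 9887 genes of the array with a promoter. It was 16.4% (10 of 61) of the other pathway genes described below. The cyclic AMP response element TGACGTCA was found only in the Ppp1r15a promoter, 12 to 5 bases before its start. Its share was 1.79% of all promoters and 2.99% of the 9887 genes. These matches are descriptions of letters and show no binding.

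The arrays of the groups were clearly apart, which sets the background for every count. Arrays of the same group correlated at 0.992 to 0.998 over the probe sets, and arrays of different groups at 0.975 to 0.988. The mean of Tfeb itself was 7.52 in not-injected and 7.58 in injected livers (SD 0.06 and 0.18, n = 3 each), all values being on the log2 scale. No source used here says whether its probe set can detect the transgene, so the labels cannot be checked in this way. Calls are those of limma's moderated test, at 0.05 after Benjamini-Hochberg adjustment over all 12393 genes. By that rule 28.1% of genes were called, and 1765 genes (14.2%) were higher and 1721 (13.9%) lower in injected livers, and after centring each array on its median these counts were 1435 and 2554. RNA controls added during labelling and hybridisation were also lower on the injected arrays, with a median difference of -0.32 over 18 probe sets of hybridisation controls and of -0.44 over 24 probe sets of poly-A controls. Their part in the differences of the members was not tested.

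Of the 10 members, 3 rose, 1 fell and 6 did not pass the test. Nupr1, Atf3 and Trib3 were higher in injected livers, against a background of 14.2% of all genes, and Atf4 was lower, against a background of 13.9%. The median difference over the members was 0.13, injected minus not-injected, and over all genes it was -0.05. Every injected liver lay above every not-injected liver in 4 members (20.1% of all genes) and below in 1 member (26.1% of all genes), so that the groups did not overlap in 5 members, against 46.2% of all genes. Among the members the transcript of the central factor was thus lower while those of 3 of its known targets were higher. Other known targets among the members, such as Asns and Ddit3, did not pass. Of the 77 other pathway genes described below, 13 were higher and 19 lower.

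**Figure D1:**
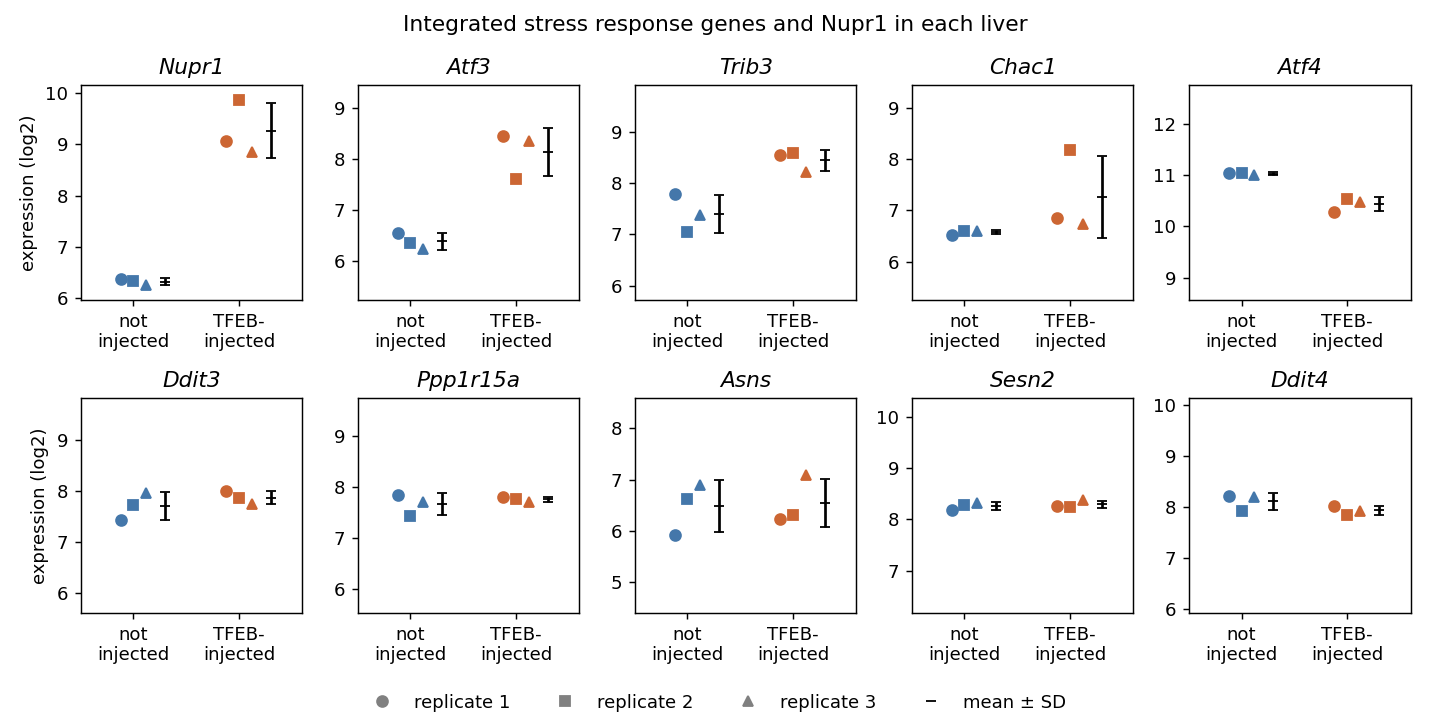
Expression of the 10 members in each liver, on the log2 scale, with not-injected livers in blue, injected livers in orange, a marker shape per replicate number, and the mean and SD of 3 livers in black. All panels span the same number of log2 units: Nupr1, Atf3 and Trib3 are higher in all 3 injected livers, Atf4 is lower in all 3, and Chac1 is far higher in injected replicate 2 alone.

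Atf4, the factor at the centre of the response, read 11.04, 11.05 and 11.01 in the 3 not-injected livers and 10.28, 10.54 and 10.47 in the injected livers. The not-injected livers were within 0.04 of each other, and the highest injected liver was 0.46 below the lowest of them. The difference was -0.60 ± 0.08 (SE; limma adjusted p = 0.00225), a level 1.52-fold lower in injected livers. Only 3.16% of all genes had a more negative difference.

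The other probe sets of Atf4 pointed the same way by different amounts, in a fit of all 20380 probe sets of which 26% were called. One of them (1438992_x_at) had a mean of 10.71 in not-injected and of 9.89 in injected livers (SD 0.05 and 0.17, n = 3 each), a difference of -0.82 ± 0.09 (SE; limma adjusted p = 0.00111). In Affymetrix names the ending x marks probes that may also bind other transcripts. The last (1439258_at) read 5.83 ± 0.05 and 5.57 ± 0.04 (SD, n = 3 each), a difference of -0.26 ± 0.065 (SE; limma adjusted p = 0.0232). Its values lay near the lower quartile of the arrays, which ranged from 5.46 to 5.56, where such values are compressed. The poly-A controls spanned -0.57 to -0.30 and the hybridisation controls -0.49 to -0.06. The main Atf4 difference of -0.60 was close to the lowest poly-A control. Its 95% interval, from -0.79 to -0.41, overlapped both spans. The smallest of the 3 Atf4 differences was nearer 0 than all poly-A controls and inside the span of the hybridisation controls. Whether what lowered the controls had a part in the fall of Atf4 was not tested.

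Atf3 encodes a related leucine zipper factor that is induced by many stresses. Its transcript read 6.56, 6.36 and 6.24 in not-injected livers and 8.44, 7.60 and 8.35 in injected livers. Injected replicate 2 was the lowest of its group and still 1.04 above the highest not-injected liver. Atf3 rose 3.36-fold (1.75 ± 0.21 on the log2 scale, SE; limma adjusted p = 0.00154), the 125th largest difference of the array.

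Ddit3, which encodes the factor CHOP, a promoter of cell death under lasting stress, read 7.43, 7.72 and 7.97 without injection and 8.01, 7.86 and 7.75 with it. The groups overlapped. The difference was 0.16, with a 95% interval from -0.16 to 0.49 (limma adjusted p = 0.406), so the data are compatible with anything from a small fall to a rise of 0.49.

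Trib3 encodes a pseudokinase that is induced by ATF4 with CHOP and restrains both ATF4 and the kinase AKT. Its main probe set read 7.78, 7.05 and 7.37 in not-injected livers and 8.55, 8.59 and 8.22 in injected livers, so the groups were apart by 0.43 while not-injected livers spread over 0.73. Trib3 rose 2.07-fold (1.05 ± 0.19, SE; limma adjusted p = 0.00655), a call lost without variance moderation (adjusted p = 0.0644). The other probe set read 7.43, 6.73 and 7.52 against 8.0, 8.12 and 7.84, a difference of 0.76 ± 0.20 (SE; limma adjusted p = 0.0275). In both probe sets not-injected replicate 2 had the lowest value. The main one (1456225_x_at) has the ending x, so it may also bind other transcripts.

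Ppp1r15a, the stress-induced subunit of the eIF2 phosphatase, read 7.85, 7.43 and 7.71 without injection and 7.81, 7.76 and 7.71 with it. All injected livers lay inside the range of the not-injected ones. The difference of 0.10 had a 95% interval from -0.16 to 0.35 (limma adjusted p = 0.538).

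Asns encodes asparagine synthetase, a classical target of ATF4 during amino acid shortage. It read 5.91, 6.62 and 6.90 in not-injected livers and 6.24, 6.30 and 7.08 in injected livers. Mice of the same group were thus up to 0.99 apart, and the groups overlapped. The difference of 0.07 had a wide 95% interval, from -0.63 to 0.76 (limma adjusted p = 0.886), which leaves room for a moderate change either way. A second probe set (1433966_x_at, with the ending x) read 4.8, 4.96 and 5.97 against 5.01, 5.07 and 6.28. In both probe sets the replicate 3 livers had the highest values of their groups.

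Chac1 encodes an enzyme that breaks down glutathione and is a sensitive target of the pathway. The not-injected livers read 6.52, 6.59 and 6.60, and the injected livers 6.86, 8.17 and 6.73. All injected livers were above all not-injected ones, but by only 0.12 at the closest, while injected replicate 2 stood 1.31 above the next injected liver. The difference over all arrays was 0.68 ± 0.34 (SE) and did not pass (limma adjusted p = 0.176). Without injected replicate 2 it was 0.22 (limma adjusted p = 0.0548), so that 1 liver sets most of its size.

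Sesn2 and Ddit4 both encode proteins that lower the activity of mTORC1, the kinase complex of growth and nutrient supply. Sesn2 read 8.18, 8.29 and 8.32 without injection and 8.27, 8.24 and 8.37 with it, a difference of 0.03 with a 95% interval from -0.14 to 0.20 (limma adjusted p = 0.787). Its second probe set gave 0.06 ± 0.10 (SE). For Ddit4 the livers read 8.22, 7.92 and 8.21 without injection and 8.03, 7.85 and 7.93 with it, a difference of -0.18 with a 95% interval from -0.41 to 0.05 (limma adjusted p = 0.213). For both genes the groups overlapped. The interval of Sesn2 was the narrowest among the 6 members that did not pass, and any rise of it above 0.20 on the log2 scale lies outside that interval.

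Nupr1 encodes a small nuclear protein that is induced by cellular stress and regulates transcription. It had the largest difference of the members. The not-injected livers read 6.38, 6.34 and 6.25, and the injected livers read 9.06, 9.87 and 8.86. Its lowest injected liver was 2.48 above the highest not-injected liver, while not-injected livers were within 0.13 of each other and injected livers spread over 1.02. Nupr1 rose 7.68-fold (2.94 ± 0.24 on the log2 scale, SE; limma adjusted p = 0.000278), the 41st largest difference of the array.

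A second probe set of Nupr1 (1419666_x_at, with the ending x) read 6.35, 5.96 and 6.09 in not-injected livers and 8.35, 9.09 and 7.99 in injected livers. It gave a rise of 5.07-fold (2.34 ± 0.25, SE; limma adjusted p = 0.000928). Both probe sets placed the injected livers in the same order, with replicate 2 highest and replicate 3 lowest. Replicate 2 was also the injected liver with by far the most Chac1 and the least Atf3. Its array had the lowest of limma's array weights, 0.396 against 0.792 to 1.875 for the other arrays.

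**Figure D2:**
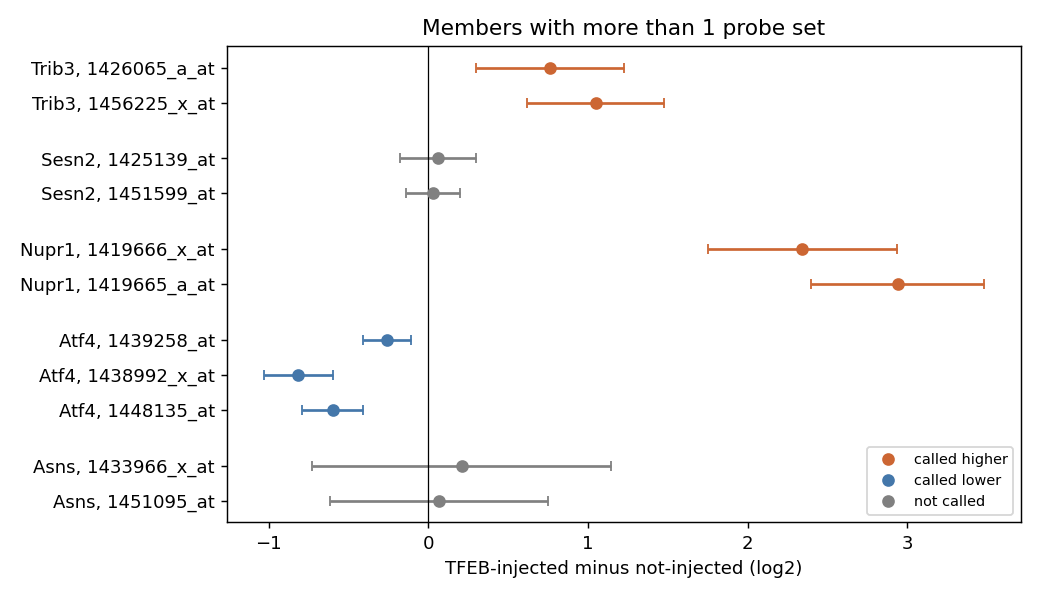
Difference between TFEB-injected and not-injected livers for each probe set of the 5 members with more than 1, on the log2 scale, with 95% intervals from limma. The 3 probe sets of Atf4 lie below 0, both of Nupr1 and both of Trib3 above 0, and those of Asns and Sesn2 span 0.

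**Figure D3:**
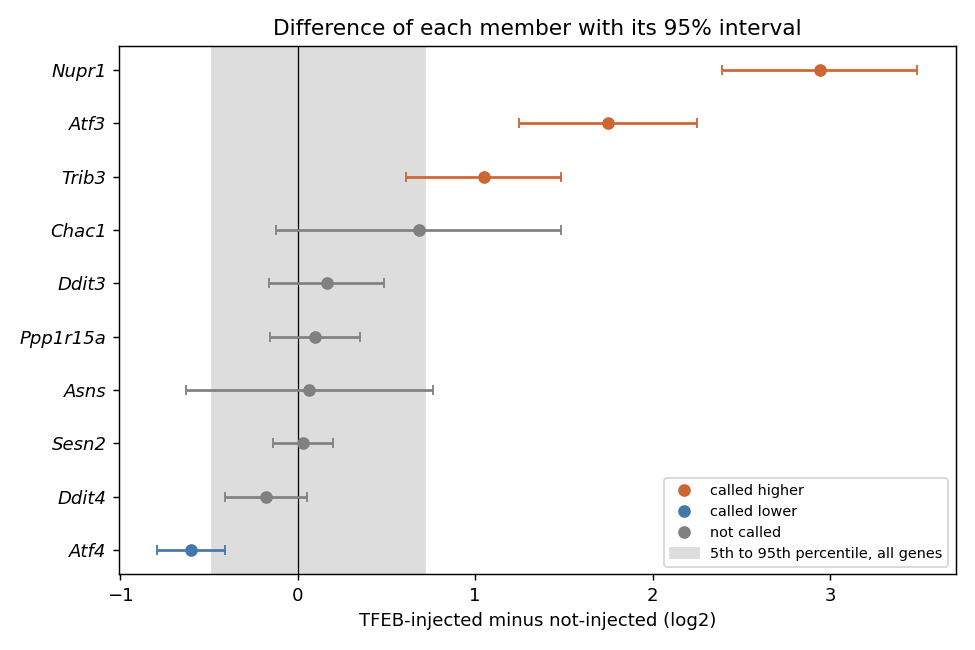
Difference of each member, TFEB-injected minus not-injected, on the log2 scale, with the 95% interval of limma's fit of all genes, and in grey the span from the 5th to the 95th percentile of all genes. The differences of Nupr1, Atf3 and Trib3 lie above that span and that of Atf4 below it, while the intervals of the other 6 members reach across 0.

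The genes with values most like Nupr1 were found by the root mean square difference over the 6 arrays, after each gene's not-injected mean was subtracted. The closest was Clec2h at 0.26, followed by Cyp46a1, a cholesterol hydroxylase, at 0.31, the pantetheinase Vnn1 at 0.37, Cox7a1, a subunit of cytochrome c oxidase, at 0.39 and the lipid droplet protein Plin4 at 0.40. Clec2h read 8.50, 7.86 and 8.12 without injection and 11.15, 12.12 and 10.74 with it. Cyp46a1 read 6.0, 6.52 and 6.59 without injection and 8.81, 9.61 and 8.59 with it. The genes were chosen for their likeness over these arrays, so the shared pattern is part of the choice.

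**Figure D4:**
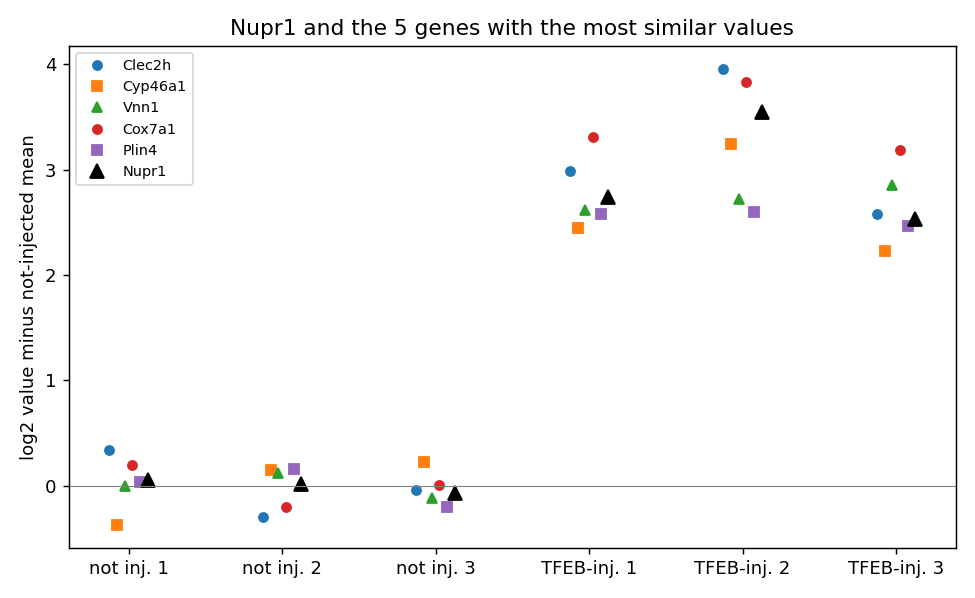
Log2 values of Nupr1 and of the 5 genes with the most similar values in each liver, each after subtraction of its not-injected mean. All 6 genes stay near 0 in not-injected livers and lie above 2 in each injected liver, a pattern for which the 5 were chosen.

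Upstream of the members, the eIF2 kinases differed from each other. Of 14 measured genes for eIF2 kinases, eIF2 and eIF2B with their regulators, 3 rose, 4 fell and 7 did not pass. Eif2ak3, which encodes PERK, the kinase that senses misfolded proteins in the endoplasmic reticulum, read 8.45, 8.37 and 8.74 without injection and 10.14, 10.05 and 10.13 with it. It rose 3.01-fold (1.59 ± 0.10, SE; limma adjusted p = 0.000118), and the groups were far apart. A second probe set of Eif2ak3 rose by 0.46 ± 0.10 and the other read 0.07 ± 0.13 (limma adjusted p = 0.0127 and 0.716), both with not-injected means of 4.72 and 5.34 below the lower quartile of the arrays.

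Eif2ak2, which encodes the kinase PKR that senses double-stranded RNA, read 7.87, 7.97 and 7.70 without injection and 7.66, 7.28 and 7.15 with it, and fell by 0.48 ± 0.14 (limma adjusted p = 0.0362), while its second probe set did not pass (-0.27, limma adjusted p = 0.166). Eif2ak4, the amino acid sensor GCN2, read -0.10 (95% interval -0.28 to 0.09), and Eif2ak1, the heme-regulated kinase, read 0.05 (95% interval -0.12 to 0.22). Neither passed, although another probe set of Eif2ak1 fell by 0.27 (limma adjusted p = 0.0267). Impact, an inhibitor of GCN2, rose by 0.83 ± 0.21 (limma adjusted p = 0.0237), and the adaptor Nck1 rose by 0.51 ± 0.13 (limma adjusted p = 0.027). A second probe set of Nck1 read 0.02 and did not pass.

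The constitutive phosphatase subunit Ppp1r15b, paralogue of Ppp1r15a, fell by 0.42 ± 0.08 (limma adjusted p = 0.00729). The eIF2 subunit Eif2s3x fell by 0.29 ± 0.07 and the eIF2B subunit Eif2b4 by 0.29 ± 0.08 (limma adjusted p = 0.018 and 0.0318). Other probe sets of Ppp1r15b (-0.24) and Eif2s3x (-0.04 and -0.18) did not pass. The falls of Ppp1r15b, Eif2s3x and Eif2b4 were within the span of the hybridisation controls, -0.49 to -0.06. Those of Eif2s3x and Eif2b4 were nearer 0 than all poly-A controls. Dnajc3, a co-chaperone that inhibits eIF2 kinases, did not pass with its main probe set (-0.17, adjusted p = 0.144), whereas its 4 other probe sets fell, by 0.24 to 0.73.

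Among 16 leucine zipper factors that pair with or stand beside ATF4, 3 rose, 2 fell and 11 did not pass. Jun, which encodes a partner of ATF3, rose 2.46-fold (1.30 ± 0.30; limma adjusted p = 0.0177), Junb by 0.70 ± 0.17 and Cebpb, a frequent partner of ATF4, by 0.35 ± 0.07. The second probe set of Jun rose by 1.49 ± 0.31, and that of Cebpb did not pass (0.13). In Jun, injected replicate 2 was the lowest of its group at 8.47, against 9.85 and 9.26, as it was in Atf3. The summed log2 level of 8 stellate cell markers had the same order, at 71.8, 66.8 and 69.4 in injected replicates 1 to 3 against 67.9 in each not-injected liver, and its part in Atf3 and Jun was not tested. Atf5, itself translated under stress in the manner of Atf4, read 11.37, 11.40 and 11.56 without injection and 10.46, 10.68 and 10.84 with it. It fell by 0.78 ± 0.11 (limma adjusted p = 0.00254), and Cebpa, a main factor of hepatocytes, fell by 0.53 ± 0.12 (adjusted p = 0.0152).

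Genes through which ATF4 supplies amino acids moved in both directions. In amino acid synthesis and one-carbon metabolism 2 of 11 rose, 5 fell and 4 did not pass. Psat1, of serine synthesis, read 4.99, 4.83 and 4.84 without injection and 6.15, 5.73 and 7.08 with it, a rise of 1.43 ± 0.30 (limma adjusted p = 0.012) from a level below the lower quartile of the arrays. Psph and Shmt2, which act after it, fell by 0.33 ± 0.08 and 0.52 ± 0.13, and Cbs, of cysteine synthesis, fell by 0.95 ± 0.07 (limma adjusted p = 0.000234 for Cbs). Gpt2, an alanine aminotransferase of mitochondria, rose by 0.33 ± 0.09. The other probe sets of Psat1, Cbs and Gpt2 were called in the same direction, as were 2 of 3 for Shmt2, the last reading -0.29.

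Of 9 amino acid transporters regulated by ATF4, 0 rose in limma's test (1 at an unadjusted p under 0.05), 2 fell and 7 did not pass. The neutral amino acid carrier Slc1a4 fell by 0.94 ± 0.11 (limma adjusted p = 0.00132) and the glycine carrier Slc6a9 by 0.80 ± 0.13 (limma adjusted p = 0.00408). These falls were not shared by all probe sets: 2 others of Slc1a4 read -0.32 (limma adjusted p = 0.0252) and -0.09 (not passing), and another of Slc6a9 read -0.19 (limma adjusted p = 0.238, not passing). Of 12 genes for aminoacyl-tRNA synthetases and tRNA export, 1 rose, 5 fell and 6 did not pass. The threonyl enzyme Tars fell 1.95-fold (-0.97 ± 0.11; limma adjusted p = 0.00104), the alanyl enzyme Aars fell by 0.52 ± 0.09 and the tyrosyl enzyme Yars by 0.40 ± 0.07. Lars, the leucyl enzyme, rose by 0.72 ± 0.16 (limma adjusted p = 0.0155).

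Of a further 15 targets of ATF4 or CHOP 4 rose, 1 fell and 10 did not pass, and their median was 0.40. Eif4ebp1, a translation repressor under mTORC1, rose by 0.76 ± 0.09, the autophagy gene Map1lc3b by 0.70 ± 0.08 and Pmaip1, a cell death gene, by 0.61 ± 0.09. The means of Pmaip1, 4.65 without injection and 5.26 with it, were both below the lower quartile of the arrays. Of the other probe sets, 1 of Eif4ebp1 rose by 0.85 and 1 did not pass (0.13), and 2 of Map1lc3b rose by 0.81 and 0.56 while 1 had the opposite sign and did not pass (-0.18, limma adjusted p = 0.233). Bbc3, another cell death gene, fell by 0.44 ± 0.08. Fgf21, a stress hormone of the liver, read 6.50, 7.06 and 6.98 without injection and 6.24, 6.76 and 6.15 with it, a difference of -0.46 that did not pass (limma adjusted p = 0.122). Over the 77 other pathway genes together, 13 rose, 19 fell and 45 did not pass, and the median was -0.08. Of the 32 called genes 19 had other probe sets, 31 in all, of which 14 were called in the same direction, 17 were not called and 1 of these had the opposite sign. Of the 45 genes that did not pass, 5 had another probe set that was called. The shares of 13 and 19 genes can be read against 14.2% higher and 13.9% lower over all genes. Leaving out injected replicate 2 gave 21 higher and 21 lower, and leaving out not-injected replicate 2 gave 7 and 9. Leaving out not-injected replicate 3 gave 9 lower, and leaving out injected replicate 1 gave 8 and 12. The counts over all genes moved too, from 1765 higher and 1721 lower to 2149 and 2229 without injected replicate 2. They were 1036 and 937 without not-injected replicate 2, 1096 and 936 without not-injected replicate 3, and 1113 and 990 without injected replicate 1.

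**Figure D5:**
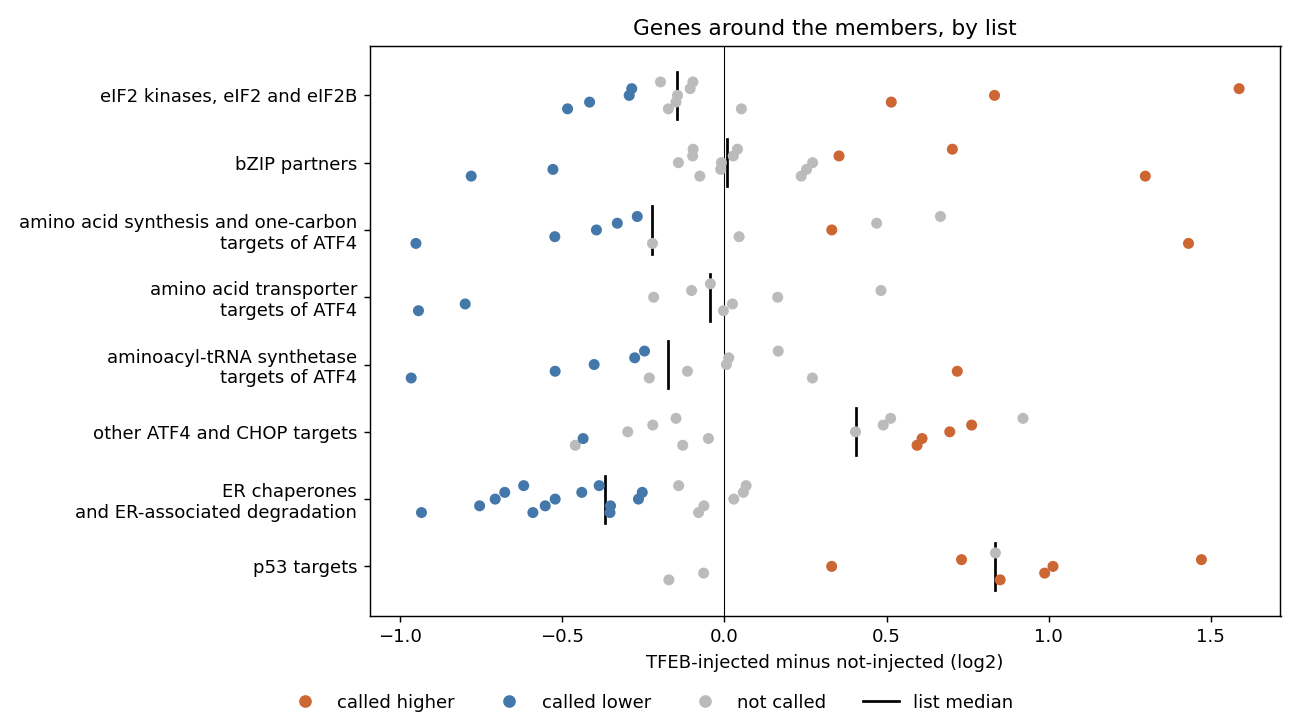
Differences between TFEB-injected and not-injected livers, on the log2 scale, for the genes of 8 lists around the members, with 1 point per gene, coloured where limma called it, and a bar at each list's median. The called genes of the amino acid transporters and of the endoplasmic reticulum list lie only below 0, those of the p53 list only above, and the other lists hold both.

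The C/EBP-ATF motif was also set beside the differences. Of 61 other pathway genes with a promoter in the RefSeq table, 14 held TGATGNAAN in the same window, a share of 23%, against 3.11% of the 9887 tested genes with a promoter. The lists were made of known ATF4 targets, so a high share is part of how they were chosen. Among these 14 genes 0 rose in limma's test (2 at an unadjusted p under 0.05), 5 fell (Aars, Eif2s3x, Slc1a4, Tars and Yars) and 9 did not pass, with a median of -0.02. Among the 5 members with the motif, Nupr1, Atf3 and Trib3 rose while Chac1 and Asns did not pass. Over all genes 14.2% were called higher and 13.9% lower. Among the 9887 genes the motif was in 3.28% of those called higher, 3.05% of those called lower and 3.08% of those not called.

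Paralogues of the members had values of their own. Sesn1 and Sesn3, relatives of Sesn2, rose by 0.44 ± 0.13 and 0.52 ± 0.13 (limma adjusted p = 0.041 and 0.021). Trib2, a relative of Trib3, rose by 0.45 ± 0.11 (limma adjusted p = 0.0207) from a low level, although its second probe set read -0.07 and did not pass, and Trib1 read 0.26 (limma adjusted p = 0.0515). Chac2, a relative of Chac1, fell by 0.53 ± 0.14 (limma adjusted p = 0.0302), and Ddit4l, a relative of Ddit4, read 0.28 (limma adjusted p = 0.225). Differences between paralogues were not tested.

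Neighbouring stress programmes are given for context. Of 20 genes for chaperones and degradation in the endoplasmic reticulum, 14 fell, 0 rose in limma's test (0 at an unadjusted p under 0.05 too) and 6 did not pass, with a median of -0.37, which lies between the medians of the hybridisation and the poly-A controls. Hyou1 fell by 0.76 ± 0.06, Pdia4 by 0.68 ± 0.07 and Dnajb11 by 0.59 ± 0.07. Of the other probe sets of Hyou1 1 fell by 0.44 and 1 did not pass (-0.32), and that of Pdia4 read -0.01 at a level below the lower quartile of the arrays. Of 9 targets of p53, 6 rose, 0 fell in limma's test (0 at an unadjusted p under 0.05 too) and 3 did not pass. Ccng1 rose 2.02-fold (1.01 ± 0.08), Zmat3 by 1.47 ± 0.19 and Phlda3 by 0.73 ± 0.11. Of 9 mitochondrial stress genes 2 rose (Afg3l2 by 0.49 ± 0.09 and Hspa9 by 0.21 ± 0.06, with none of 3 other Hspa9 probe sets called), 0 fell in limma's test (0 at an unadjusted p under 0.05 too) and 7 did not pass.

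Targets of glucocorticoids, to which Ddit4 belongs, were divided, with 3 of 8 higher and 2 lower. Among them Mt1 rose by 4.49 ± 0.24, Mt2 by 3.62 ± 0.38 and Zbtb16 by 1.58 ± 0.22, and Tat fell by 1.45 ± 0.10 and Tsc22d3 by 1.34 ± 0.15. A second probe set of Mt1 had the opposite sign and did not pass (-0.13, limma adjusted p = 0.371), and that of Zbtb16 rose by only 0.30 (limma adjusted p = 0.0289). Of 9 immediate early genes, which can respond to handling, 2 rose (Myc by 1.87 ± 0.32 and Ier3 by 1.63 ± 0.24) and 7 did not pass.

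Marker lists were read beside these results. None of 7 hepatocyte markers was called by limma with its main probe set (0 higher and 3 lower at an unadjusted p under 0.05). Another probe set of the hepatocyte marker Hnf4a was called lower (-0.36, limma adjusted p = 0.034). The summed log2 level of these markers was 101 in each not-injected liver and between 100.03 and 100.8 in the injected ones. Of 8 markers of sinusoidal endothelial cells 5 were higher and 0 lower, with sums of 66.8 to 68.0 without injection and 71.5 to 73.2 with it. Of 8 macrophage markers 2 were higher (Cd68, 1.74, and Lyz2, 0.925) and 2 lower (Cd163, -3.62, and Marco, -0.795). Their sums were 71.3 to 75.1 without injection and 70.7 to 72.6 with it. In the lists of neutrophils (1 of 7), B and plasma cells (1 of 4), T and NK cells (0 of 6), stellate cells (0 of 8), cholangiocytes (0 of 5), erythroid cells (0 of 4) and pancreatic acinar cells (0 of 6), few or no markers were higher by limma's call. In the same order 0, 0, 0, 1, 0, 1 and 2 markers were lower. These counts use main probe sets. Another probe set was called higher for the stellate marker Col1a2 (0.88, limma adjusted p = 0.0413) and the B cell marker Ms4a1 (0.56, limma adjusted p = 0.0219). The sums of stellate markers ran from 66.8 to 71.8 in injected livers against 67.9 in each not-injected liver, led by the collagen gene Col3a1 at 10.99, 9.35 and 10.70 in injected replicates 1 to 3. Cholangiocyte sums had the same order, at 29.5, 27.6 and 29.1 against 28.1 to 28.3. Sums of erythroid markers (27.2 to 28.5 against 29.6 to 29.7) and of acinar markers (38.1 to 39.4 against 40.4 to 40.8) were lower in every injected liver. The erythroid fall lay mostly in Alas2 (-1.60), the others reading -0.19 to -0.02. The acinar fall lay mostly in Cela1 (-1.19) and Cela2a (-0.44), the others reading -0.12 to -0.02. Sums of B and plasma cell markers were higher in every injected liver (23.4 to 24.2 against 22.2 to 23.2). Sums of neutrophil markers (42.2 to 44.5 against 42.1 to 42.7) and of T and NK cell markers (37.4 to 38.1 against 37.8 to 38.1) overlapped. These sums were not tested. The part of the endothelial and other shifts in the differences of Nupr1, Atf3, Trib3 and Atf4 was not tested.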

How the data were processed

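Gene expression was measured on 1 array per liver, and the deposited values are on the log2 scale, 1 per probe set. According to the submitters' processing notes, the authors used the R package affy and RMA, whose versions are not stated there. RMA usually corrects background, makes the arrays alike in distribution and summarises each set of probes. A change in all transcripts at once would thus be invisible, and low values are drawn together. The values came without detection calls, and 6 arrays limit the precision.

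Of 22690 probe sets 64 were controls, 20380 had 1 symbol in the platform annotation, 691 several and 1555 none. A gene took the probe set with the highest mean over 6 arrays. Some of these have the ending x, among them those of Trib3, Eif2s3x, Shmt2, Eif4ebp1 and Zbtb16. Of 12393 genes 12369 were found in the RefSeq table of GRCm38.p6. The test was limma's (lmFit and eBayes of version 3.58.1 in R 4.3.3; two-sided, no covariate, no filter), and standard errors and 95% intervals are those of the moderated fit. A second fit used all probe sets with 1 symbol. The test was tried on simulated data for this comparison (12393 genes, 200 of them changed): it called 58% of those given a log2 change of 0.5 and 91% of those given a change of 1, and 5.7% of its calls were unchanged genes. In the real data 3486 genes were called, far more than were changed there. The adjustment depends on that number, so these shares are not the detection rates of the real comparison.

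The members and gene lists were chosen with earlier results of these data known. The text names all members and, of each list, up to 3 called genes per direction with the smallest p, all paralogues with a value and the 5 genes most like Nupr1. Genes outside this rule (the remaining eIF2 kinases, Dnajc3, Fgf21, Col3a1 and the other named cell type markers, and the motif-bearing genes) were named after their values were seen. Listed genes without a probe set of 1 symbol were not analysed here.

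The fit was repeated with the replicate number as a block, with an intensity trend, without moderation, on genes of at least median level, on means of probe sets, on every probe set, after quantile normalisation or median centring, with array weights and without each array. Python 3.11.15 was used for tables and plots. Nothing in the sources used here names separate litters or days, so p-values measure the spread between these mice.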

Additional observations from a re-analysis of the deposited data

How the results depend on the processing

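Nupr1 (2.64 to 3.14) and Atf4 (-0.67 to -0.52) kept their direction and call in all 15 alternatives, and Atf3 (1.59 to 2.01) in the 14 that gave it a value. Some alternatives return the main difference of a gene unchanged, so that only its call could differ. These are the block, the trend, the fit without moderation, the genes of at least median level and every probe set. Trib3 lost its call only without moderation (1.05, adjusted p = 0.0644). Atf3, Asns and Chac1 lay below the median level and had no value in the fit of genes at or above it. Values changed sign for 3 members that did not pass. Asns read -0.0006 after centring and -0.0248 with array weights, and it spanned -0.22 to 0.28 when each array was left out. For Sesn2 a second quantile normalisation gave -0.0621 and centring gave -0.0377, and it spanned -0.0144 to 0.0599 when each array was left out. Ppp1r15a spanned -0.0194 to 0.19 when each array was left out. Without moderation 1881 genes were called in all, with 5 other pathway genes higher and 12 lower. With array weights 4707 genes were called in all, with 21 other pathway genes higher and 23 lower. Leaving out 1 array gave 1973 to 4378 called genes, 3 members higher and 1 lower each time, and 7 to 21 other pathway genes higher and 9 to 21 lower. The lowest count of all genes came without not-injected replicate 2 (1973), and those without not-injected replicate 3 (2032) and without injected replicate 1 (2103) were also under that of 3486 by more than 1.5 times. The cause was not tested.

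With the replicate number as a block 3348 genes were called, with 3 members higher and 1 lower and 16 other pathway genes higher and 19 lower. Correlations of deviations between same-numbered arrays were 0.14, 0.06 and 0.01, so the numbers were not taken as pairs. The number of arrays and the compression of low values limit what can be said of Asns, Psat1, Pmaip1 and the weaker probe sets of Eif2ak3 and Atf4.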
